A study of Arabidopsis thaliana with 8 samples.

Results

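The 10 genes described here encode WRKY transcription factors of Arabidopsis thaliana: WRKY6, WRKY11, WRKY15, WRKY18, WRKY21, WRKY22, WRKY33, WRKY40, WRKY53 and WRKY70. They are 10 of 27416 loci with a coding model in the count files, and 10 of the 72 loci that the RefSeq gene table names WRKY with a number. They were picked by name when their response to light was already known, so those values are given as a description and not as a test.

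The study profiled ribosome footprints and mRNA from material kept in the dark or in blue light, in 8 libraries that form 4 groups of 2. The groups are mRNA from the dark, mRNA from blue light, footprints from the dark and footprints from blue light. Ribosome profiling sequences the short stretches of mRNA that ribosomes shield from RNase I, so a footprint count follows how many ribosomes sit on a coding sequence. The labels give no genotype, ecotype, tissue, plant age, light intensity or duration for any group, and do not say whether replicates came from separate plants, so the p-values below measure only the spread between these libraries. These are bulk samples, in which fewer cells of a type and less RNA per cell cannot be told apart.

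WRKY proteins are plant transcription factors that carry a conserved DNA-binding domain, named for its amino acids, and bind a short promoter element called the W-box. Many act below the pattern receptors: a mitogen-activated protein (MAP) kinase cascade phosphorylates some of them, and VQ proteins bind others. They control genes of the salicylic acid and jasmonate pathways, of camalexin synthesis and of leaf senescence, and several repress or activate the genes of other family members.

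Depth differed greatly between the assays. Total counts per library were 688630 to 847469 in mRNA and 2888624 to 4919808 in footprints, and 45.2% to 48.7% of mRNA counts fell on chloroplast genes, against 0.739% to 0.965% of footprint counts. The 10 genes together had 49 to 118 counts in an mRNA library and 372 to 500 in a footprint library. A single count was worth 1.17 to 1.73 CPM (counts scaled to a library of 1000000) in mRNA and 0.22 to 0.323 CPM in footprints. No tissue label could be checked. Of 9 root and root hair markers, 7 were tested in footprints. Of these, 3 were called lower and 1 higher in blue light, where 16.9% of all loci were called lower and 20.9% higher. The summed footprint level of the 9 markers was 218 to 244 CPM in the dark and 172 to 181 CPM in blue light. Their summed mRNA level was 218 to 224 CPM and 163 to 213 CPM. The nitrate transporter NRT2.1 had at most 2 footprint counts in a library and the iron transporter IRT1 had 1 in each. The part of these markers in the results below was not tested.

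Per length of coding sequence, WRKY11 carried the most footprints of the 10 in both conditions. Footprint density, in CPM per 1000 codons, was 115 ± 0.28 (SD, n = 2) for WRKY11 in the dark, above 73.8% of the loci tested. WRKY6 followed at 45.9 ± 2.39, near the middle of all loci, and its libraries overlapped those of WRKY15, the next gene. WRKY15 (33.3 ± 18.9), WRKY22 (32.2 ± 8.26), WRKY33 (29.7 ± 5.19), WRKY21 (23.9 ± 3.03), WRKY70 (23.7 ± 0.12), WRKY18 (22.3 ± 4.23) and WRKY40 (17.7 ± 3.22) formed a continuous series, in which each gene's libraries overlapped those of the next. WRKY53 was lowest, at 6.90 ± 1.86, and its libraries lay below those of WRKY40.

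In blue light WRKY11 was again first in footprint density and WRKY53 last. The level of WRKY11 was 93.1 ± 2.59 CPM per 1000 codons (SD, n = 2). WRKY15 (46.2 ± 10.5), WRKY6 (44.4 ± 10.7), WRKY21 (37.1 ± 4.67), WRKY18 (32.8 ± 7.03) and WRKY33 (29.0 ± 1.87) overlapped each with the next. Below them WRKY70 (12.4 ± 1.2), WRKY40 (7.86 ± 1.54), WRKY22 (4.81 ± 0.33) and WRKY53 (1.51 ± 0.83) stood apart from one another. WRKY22 moved from the fourth place to the ninth, where 2.07% of the tested loci had a lower density.

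**Figure D1:**
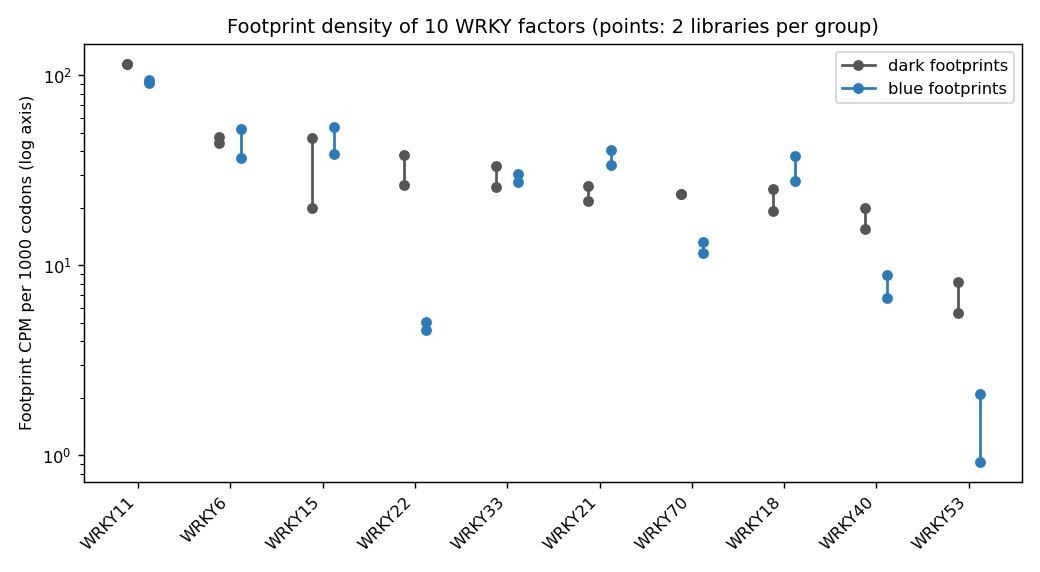
Footprint density of the 10 WRKY factors, in CPM per 1000 codons on a log axis, with both libraries of the dark (grey) and of blue light (blue) joined by a line and genes ordered by their level in the dark. WRKY11 lies above the other 9 genes in each condition, and WRKY22 lies at 32.2 in the dark and 4.81 in blue light on average.

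WRKY22 had the largest difference of the 10 in footprints. It lies on chromosome 4 (AT4G01250) and encodes a factor of subgroup IIe that acts, with WRKY29, below the flagellin-triggered MAP kinase cascade, and that has been tied to senescence in darkness. Its footprint level was 10.99 and 7.62 CPM in the dark (34 and 26 counts) and 1.32 and 1.46 CPM in blue light (6 and 5 counts). Both blue libraries lay far below both dark ones. The fitted log2 difference was -2.71 ± 0.39 (SE), and with the libraries of each group summed the level was 6.69-fold lower in blue light. Its mRNA had 3 counts in each of the 4 libraries, so that no difference in mRNA was detectable at this depth: the blue to dark ratio was 1.29, with an exact 95% interval, for counting error only, of 0.346 to 4.84.

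WRKY40, WRKY70 and WRKY53 also had fewer footprints in blue light. WRKY40 (AT1G80840, chromosome 1) is a subgroup IIa repressor that works with WRKY18 in basal immunity and abscisic acid responses. Its footprint level was 4.53 and 5.86 CPM in the dark and 1.98 and 2.62 CPM in blue light, groups that did not overlap, with a log2 difference of -1.20 ± 0.39 (SE). Its mRNA had 5 and 0 counts in the dark and 2 and 0 in blue light.

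WRKY70 (AT3G56400, chromosome 3), a group III factor at the meeting point of salicylic acid and jasmonate signalling and a restraint on senescence, stood at 6.79 and 6.74 footprint CPM in the dark. In blue light it stood at 3.30 and 3.79 CPM, below both dark libraries, a log2 difference of -0.94 ± 0.33 (SE). Its mRNA counts were 2 and 3 in the dark and 2 and 4 in blue light, which overlapped.

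WRKY53 (AT4G23810, chromosome 4), a group III activator of leaf senescence, was the least covered. It had 8 and 6 footprint counts in the dark (2.59 and 1.76 CPM) and 3 and 1 in blue light (0.661 and 0.291 CPM). The groups did not overlap, and the ratio of blue to dark was 0.233, with an exact 95% interval for counting error of 0.0559 to 0.742. It was too low for the fit, which kept 9 of the 10 genes. Its mRNA counts were 8 and 2 in the dark and 0 and 2 in blue light.

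The 3 genes of subgroup IId, whose proteins bind calmodulin, did not move together. WRKY11 (AT4G31550, chromosome 4), which restrains basal resistance together with WRKY17, had 36.2 and 36.3 footprint CPM in the dark and 28.8 and 30.0 CPM in blue light. Both blue libraries lay below both dark ones, but by a small margin, -0.30 ± 0.14 (SE) on the log2 scale. Its mRNA was at 26.6 and 61.1 CPM in the dark and 29.0 and 38.1 CPM in blue light, where the dark libraries enclosed the blue ones. The log2 difference in mRNA was -0.40 ± 0.42 (SE), but 0.32 without the second dark library and -0.93 without the first.

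WRKY21 (AT2G30590, chromosome 2) went the other way in footprints. Its level was 8.08 and 9.67 footprint CPM in the dark and 15.0 and 12.5 CPM in blue light, without overlap, a log2 difference of 0.64 ± 0.23 (SE). Its mRNA had 3 and 6 counts in the dark and 0 and 0 in blue light. The exact 95% interval of the blue to dark ratio in mRNA, for counting error only, reached up to 0.656, and leaves out the spread between libraries. The mRNA counts were too few for the main fit, so the opposite directions of the 2 assays are a description with no test.

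WRKY15 (AT2G23320, chromosome 2), known in growth and in salt and osmotic stress, was uneven between replicates. Its footprint level was 6.14 and 14.4 CPM in the dark and 16.5 and 11.9 CPM in blue light, so the groups overlapped, and the log2 difference was 0.47 ± 0.27 (SE). The difference rested on single libraries: it was 0.03 without the first dark library, 1.24 without the second dark and 0.20 without the first blue. Its mRNA counts were 8 and 14 in the dark and 6 and 4 in blue light, without overlap.

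Of the remaining genes, WRKY18 had more footprints in both blue libraries, and WRKY6 and WRKY33 overlapped between conditions in footprints. WRKY18 (AT4G31800, chromosome 4), the subgroup IIa partner of WRKY40, had 5.82 and 7.62 footprint CPM in the dark and 8.37 and 11.4 CPM in blue light, a log2 difference of 0.51 ± 0.28 (SE). Both blue libraries were above both dark ones, and its mRNA had 4 and 4 counts against 7 and 0. The 2 subgroup IIa genes measured here thus lay on opposite sides of 0 in footprints, while the third, WRKY60, named here after its counts were seen, had 2 to 5 footprint counts in a library and none in mRNA.

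WRKY6 (AT1G62300, chromosome 1) is a subgroup IIb factor of senescence and phosphate responses. Its footprint level was 25.9 and 24.0 CPM in the dark and 20.04 and 28.3 CPM in blue light, where the blue libraries enclosed the dark ones. Its mRNA was at 13.9 and 11.7 CPM in the dark and 24.6 and 17.3 CPM in blue light, without overlap, with a log2 difference of 0.71 ± 0.55 (SE).

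WRKY33 (AT2G38470, chromosome 2) is a group I factor, phosphorylated by the kinases MPK3 and MPK6, that drives camalexin synthesis and resistance to necrotrophic fungi. It had 13.3 and 17.0 footprint CPM in the dark and 14.1 and 15.4 CPM in blue light. The dark libraries enclosed the blue ones. Its mRNA was at 15.2 and 28.2 CPM in the dark and 17.4 and 6.92 CPM in blue light, which overlapped, a log2 difference of -0.80 ± 0.58 (SE), which ranged from -1.60 without the first blue library to -0.29 without the second dark.

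**Figure D2:**
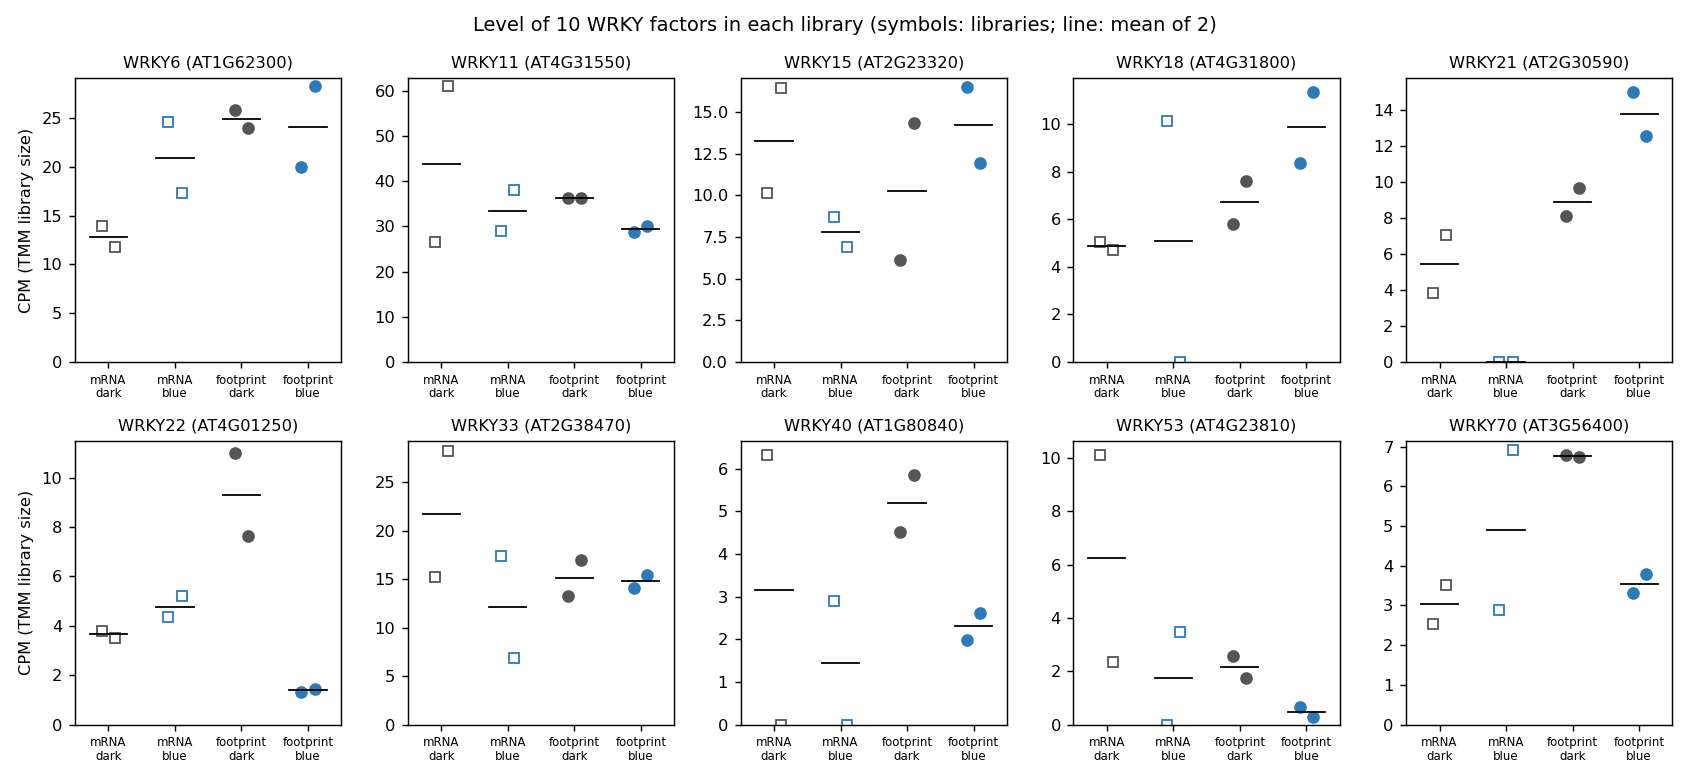
Level of each of the 10 WRKY factors in CPM in all 8 libraries (open squares, mRNA; filled circles, footprints; grey, dark; blue, blue light), with the mean of 2 libraries as a line and an axis from 0 for each gene. The blue footprint libraries lie below the dark ones for WRKY11, WRKY22, WRKY40, WRKY53 and WRKY70 and above them for WRKY18 and WRKY21.

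Counted over the 10 genes, both blue footprint libraries lay below both dark ones in 5, above them in 2 and among them in 3. Of the 9 genes that passed the filter on low counts, 6 were apart either way, and 67.5% of all 15788 loci tested in footprints were apart. The whole-table fit, edgeR's quasi-likelihood test with Benjamini-Hochberg adjustment at 0.05, called WRKY21 higher and WRKY22, WRKY40 and WRKY70 lower, and 37.8% of all loci were called. Since the genes were chosen with these values known, nothing is read from these shares. The call of WRKY22 held without each library in turn, with log2 differences of -2.96 to -2.43, whereas that of WRKY40 was lost without the second dark, the first blue or the second blue library, that of WRKY70 without any 1 of the 4 and that of WRKY21 without the first dark or the first blue.

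In mRNA, 3 of the 10 genes, WRKY6, WRKY11 and WRKY33, passed the filter, and edgeR called none of the 3, none had an unadjusted p under 0.05, and DESeq2 called none. Of all 7822 loci tested in mRNA, 3.9% were called, 2.85% higher and 1.05% lower. The mRNA libraries of the 2 conditions were apart for 4 of the 10, namely WRKY6 and WRKY22 higher and WRKY15 and WRKY21 lower, where 34.8% of all loci with any mRNA count were apart, 18.3% higher and 16.6% lower. For WRKY22 the counts were equal and only the scaling of the libraries set them apart. The change in translational efficiency, the difference between the footprint and the mRNA log2 change, was -0.93 ± 0.51 (SE) for WRKY6, -0.02 ± 0.39 for WRKY11 and 0.61 ± 0.56 for WRKY33. Leaving out 1 library at a time gave -1.16 to -0.63 for WRKY6, -0.76 to 0.48 for WRKY11 and 0.08 to 1.49 for WRKY33. None was called by edgeR or DESeq2 and none had an unadjusted p under 0.05, and 10.1% of all 6169 loci were called, 5.2% higher and 4.93% lower.

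**Figure D3:**
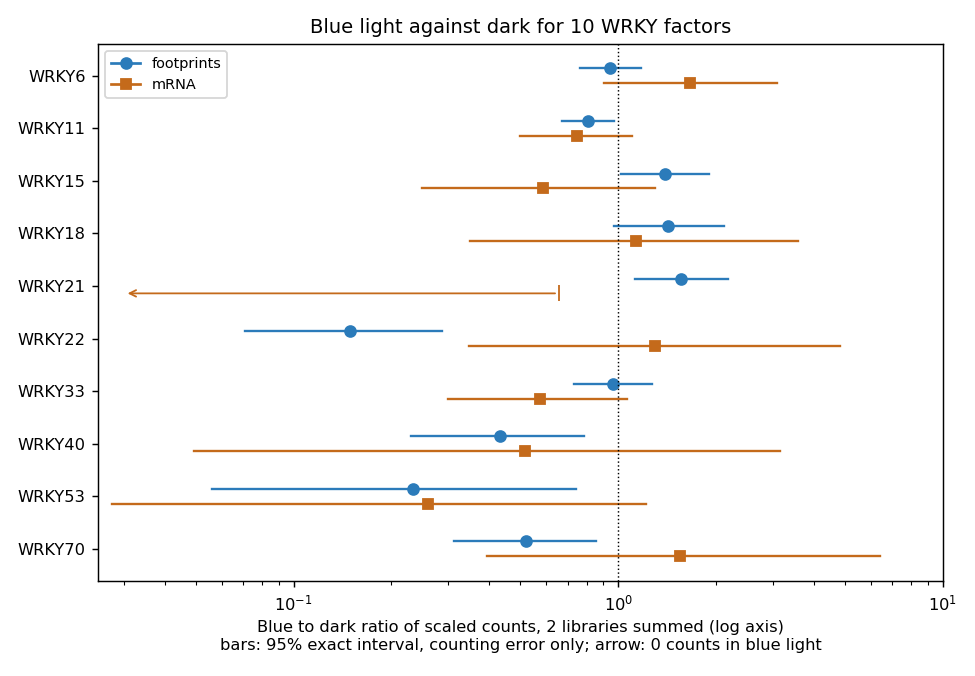
Ratio of blue light to dark for each WRKY factor with the 2 libraries of a group summed, on a log axis, for footprints (circles) and mRNA (squares), with exact 95% intervals that cover counting error only. The footprint ratio runs from 0.150 for WRKY22 to 1.56 for WRKY21, and the arrow marks WRKY21 mRNA, with no count in blue light and an upper bound of 0.656.

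How many footprints a gene had for its mRNA within a condition was not used to choose the genes and could be tested for the 3 genes measured in both assays. These 3 entered because their mRNA passed the filter on low counts, which favours genes with much mRNA for their footprints. Among the genes left out, the summed footprint to mRNA ratio in the dark ran from 0.238 for WRKY53 to 1.70 for WRKY22. It was 0.550 for WRKY11, 0.468 for WRKY33 and 1.31 for WRKY6. In the dark, WRKY11 and WRKY33 had fewer footprints for their mRNA than the scaling of the assays over all loci gives, and WRKY6 was not called. With edgeR's quasi-likelihood test and Benjamini-Hochberg adjustment over 6169 loci, the log2 difference of footprints from mRNA was -0.86 ± 0.26 (SE, adjusted p = 0.00574) for WRKY11 and -1.09 ± 0.36 (SE, adjusted p = 0.00963) for WRKY33. It was 0.39 ± 0.37 (SE, adjusted p = 0.355) for WRKY6. Of all loci, 70.8% were called in this comparison, 34.7% higher and 36.1% lower. The second dark mRNA library, which had the higher count of both genes, carried both calls: without it the differences were -0.16 (adjusted p = 0.722) for WRKY11 and -0.60 (adjusted p = 0.330) for WRKY33 by the same edgeR test, and WRKY33 was also lost without the first dark footprint library (adjusted p = 0.0836).

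In blue light, WRKY11 was again lower in footprints than in mRNA, by -0.88 ± 0.32 on the log2 scale (SE, adjusted p = 0.0194, edgeR's quasi-likelihood test), where 68.3% of all loci were called, 35% higher and 33.2% lower. WRKY6 was at -0.54 ± 0.36 (SE, adjusted p = 0.183, edgeR) and WRKY33 at -0.48 ± 0.47 (SE, adjusted p = 0.373, edgeR). The call of WRKY11 was lost without the second blue mRNA library (adjusted p = 0.156), either dark footprint library (adjusted p = 0.0514 and 0.0517) or the first blue footprint library (adjusted p = 0.0612), and with no filter on low counts (adjusted p = 0.0731), all by edgeR. For the other 7 genes, too low in mRNA for the test, only summed counts can be set side by side. WRKY22 had 60 footprint and 6 mRNA counts in the dark and 11 and 6 in blue light, a scaled footprint to mRNA ratio of 1.70 (exact 95% interval for counting error, 0.737 to 4.82) and 0.179 (0.0607 to 0.589). WRKY21 had 58 footprint and 9 mRNA counts in the dark, a ratio of 1.10 (0.539 to 2.52), and 111 and 0 in blue light.

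Among the other 62 WRKY loci, more were called lower than higher in footprints in blue light. Of the 25 that passed the filter, 7 were called lower and 0 higher by edgeR's quasi-likelihood test (12 had an unadjusted p under 0.05, and DESeq2 called 2 lower and 0 higher), where 16.9% of all loci were called lower and 20.9% higher. Their median log2 difference was -0.36, against -0.02 over all loci, and 19 of 25 were below 0. The largest among the 7 called were WRKY47 (-1.29 ± 0.26, adjusted p = 2.43e-04), WRKY75 (-1.11 ± 0.36, adjusted p = 0.0148), WRKY25 (-1.08 ± 0.18, adjusted p = 1.81e-05) and WRKY3 (-0.78 ± 0.21, adjusted p = 0.00398), all by edgeR. WRKY75 acts in phosphate starvation and senescence, and WRKY25 is a close relative of WRKY33. Leaving out 1 library at a time gave 3 to 6 loci called lower, with 4 without the first blue library and 3 without the second. WRKY75 lost the call without the second dark or either blue library, and WRKY3 without the second blue.

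The libraries behind these calls can be seen in WRKY47 and WRKY25. WRKY47 stood at 14.6 and 11.4 footprint CPM in the dark and 5.51 and 4.95 CPM in blue light. WRKY25 stood at 24.6 and 30.5 CPM in the dark and 13.4 and 12.5 CPM in blue light. For both, the blue libraries lay below the dark ones by more than the gap between replicates. In summed footprint level the other 62 loci gave 372 ± 4.16 CPM (SD, n = 2) in the dark and 293 ± 6.38 CPM in blue light, and the 10 genes gave 126 ± 7.58 and 114 ± 5.36 CPM. The 10 genes held 25.3% of all WRKY footprint counts in the dark, against 27.9% under blue light, and 18.2% and 16.7% of WRKY mRNA counts, respectively.

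In mRNA, 14 of the other 62 loci were tested and edgeR called 0 (1 had an unadjusted p under 0.05, DESeq2 called 0), where 3.9% of all loci were called. Within a condition, 12 of them could be tested for footprints against mRNA. Of these, 9 were called lower and 0 higher in the dark and 9 lower and 0 higher in blue light, and 8 loci were lower in both (DESeq2 called 8 and 9 lower). Of all loci, 36.1% were called lower and 34.7% higher in the dark, and 33.2% lower and 35% higher in blue light. The median log2 difference of the 12 loci was -1.46 in the dark and -1.89 in blue light, against -0.09 and -0.02 over all loci. Their values in the dark ran from -4.09 to 0.75. Only loci with enough mRNA counts enter this comparison, which favours loci with much mRNA for their footprints. Among those left out, WRKY39 had 67 to 106 footprint counts and 0 to 3 mRNA counts in a library. WRKY25 had 43 to 104 and 1 to 7, whereas 13 of the loci left out had no footprint count. The calls thus do not describe the family as a whole.

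**Figure D4:**
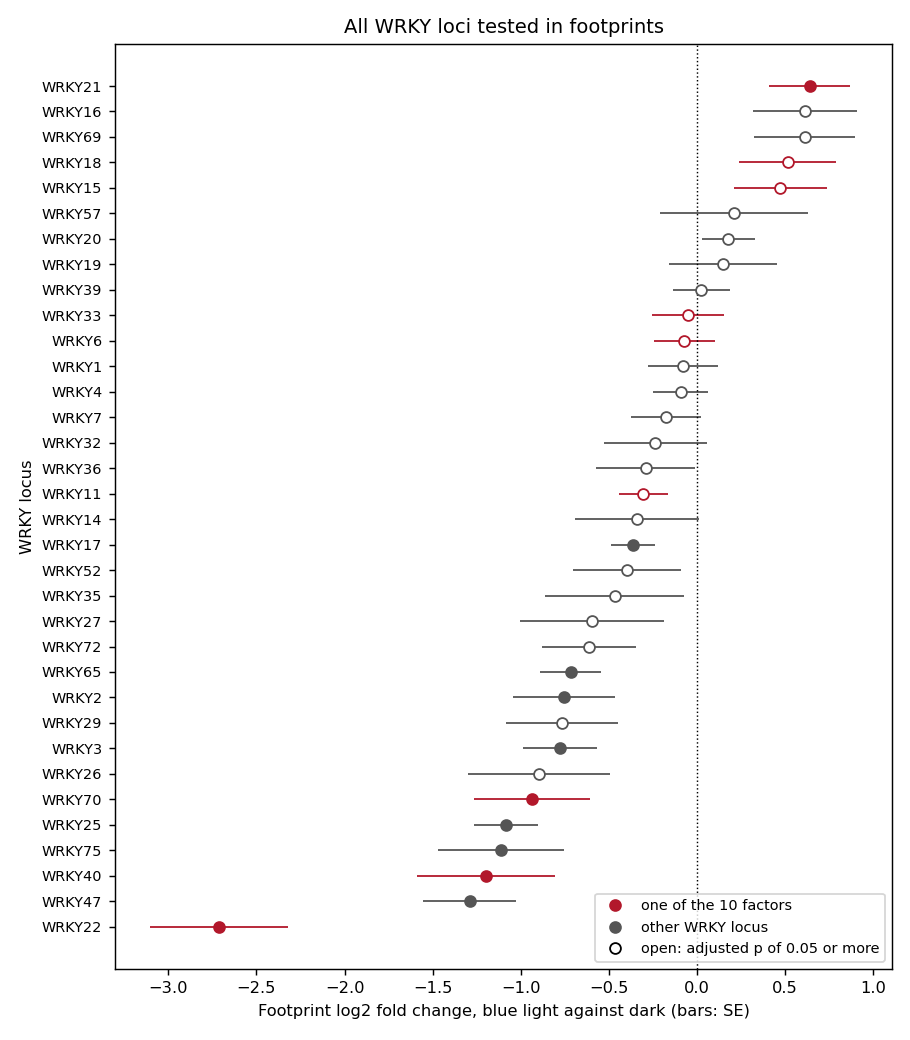
Footprint log2 difference between blue light and dark with its SE for each of the 34 WRKY loci tested (red, the 10 factors described here; grey, other WRKY loci; filled, adjusted p under 0.05 by edgeR). WRKY22 is lowest at -2.71, WRKY21 is highest at 0.64 and is the only locus of the 34 called higher. WRKY16 and WRKY69 lie close to it, each at 0.61, and are not called.

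Sorted by the subgroups of the family, WRKY22 and WRKY65, the latter named after its values were seen, were the 2 called lower of 7 tested IIe loci, whose median log2 footprint difference was -0.59. Of subgroup IId, 6 were tested, of which 1 was called higher and 1 lower, with a median of -0.07. Over all loci tested in footprints, 16.9% were called lower and 20.9% higher, with a median of -0.02. These calls include WRKY22 and WRKY21, chosen with their values known, so nothing is read from the counts by subgroup. Of subgroup III, which holds WRKY53 and WRKY70, 1 of 13 loci was tested. Subgroups were assigned from general knowledge of the family.

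Among genes with a name, those whose footprint levels were nearest to a WRKY factor over the 4 footprint libraries were found by the root mean square difference of centred log2(CPM + 0.5) values, over 6592 candidates and for the 6 factors with a mean of at least 20 footprint counts. WRKY6 lay nearest to OST1 (0.0219), a kinase of abscisic acid signalling. WRKY11 lay nearest to CPK1 (0.00594) and WRKY18 to CDPK19 (0.0316), both calcium-dependent protein kinases. WRKY15 lay nearest to EMB3127 (0.0749), WRKY21 to PUR7 (0.0183), an enzyme of purine synthesis, and WRKY33 to ZAP1 (0.0148), which is itself WRKY1. The 4 libraries hold only 2 conditions and the candidates are many, so nothing is read from what these genes do. The distances are descriptions with no test.

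The genes that surround the WRKY factors were read from the same fits. Their lists were drawn up with earlier results of these data known. The counts and medians of each list are therefore a description, and nothing is read from them against the shares over all loci. In mRNA, 8 of the 9 lists had no gene called by edgeR (2 MAP kinase genes and 3 pattern receptor genes had an unadjusted p under 0.05, none in the other 6, and DESeq2 called 0), whereas both senescence genes tested fell in blue light: SAG20 by -2.88 ± 0.32 and SEN1 by -2.16 ± 0.35 (SE, edgeR's adjusted p = 2.17e-07 and 1.17e-04). Unless mRNA, counts or translational efficiency are named, the values that follow are log2 differences in footprints, with calls by edgeR's quasi-likelihood test. Of all loci, 20.9% were called higher and 16.9% lower in footprints, and the median was -0.02.

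Upstream of the WRKY factors, calls went in both directions. Of 12 genes of the MAP kinase cascade and its phosphatases 11 were tested, 2 rose and 2 fell, with a median of -0.12. MKK5, the kinase kinase above MPK3 and MPK6, rose by 0.74 ± 0.17 (SE) and the phosphatase AP2C1 by 0.67 ± 0.27, while MPK3 fell by 0.67 ± 0.12 and MEKK1, at the top of the cascade, by 0.66 ± 0.24. Of 13 genes of pattern receptors and early immunity 10 were tested, 1 rose and 4 fell, with a median of -0.17. The oxidase RBOHD, which makes reactive oxygen, rose by 1.35 ± 0.12, and the flagellin receptor FLS2 fell by 0.98 ± 0.12, the receptor-like cytoplasmic kinase BIK1 by 0.44 ± 0.17 and the receptor kinase BIR1 by 0.38 ± 0.12. The mRNA of RBOHD (0.55 ± 0.47) and FLS2 (-0.34 ± 0.46) leaned the same way as their footprints. That of BIR1 leaned the other way (1.41 ± 0.64), not called, and its translational efficiency was called lower (-1.94 ± 0.51, adjusted p = 0.0146, edgeR), as for 4.93% of loci. Of the 10 VQ partner genes 5 were tested and 1 fell, with a median of -0.29, namely MKS1, which links the kinase MPK4 to WRKY33, by 1.28 ± 0.43. Leaving out a library removed some calls (edgeR): AP2C1 without either dark or the second blue library, MEKK1 without the first dark or first blue, MKS1 without either dark or the first blue, BIK1 without any 1 of the 4, and BIR1 without the second dark or second blue. The counts without a library were 1 to 2 higher and 1 to 2 lower for the kinase list, 1 to 3 lower for the receptor list and 0 to 1 lower for the VQ list. DESeq2 called 1 higher and 1 lower in the kinase list, 1 and 1 in the receptor list and 0 in the VQ list.

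Of 10 genes listed for camalexin and indole glucosinolates, 6 were tested, 4 fell and 0 rose, with a median of -0.52. PAD3, CYP71A12, CYP71A13 and CYP81F2 had too few footprint counts to be tested, so the calls do not cover the camalexin synthesis that WRKY33 drives as a whole. The enzymes CYP79B2 and CYP79B3 of the first step fell by 0.79 ± 0.12 (SE) and 0.51 ± 0.20, the myrosinase PEN2 by 0.53 ± 0.09 and the transporter PEN3 by 0.36 ± 0.07. The mRNA of PEN3 leaned the same way (-0.76 ± 0.37) and that of CYP79B2 the other way (0.80 ± 0.55), neither called. The translational efficiency of CYP79B2 was called lower (-1.71 ± 0.48, adjusted p = 0.0229, edgeR). CYP79B3 lost the call without the second dark library (adjusted p = 0.385, edgeR) and without either blue library (adjusted p = 0.0907 and 0.178, edgeR). DESeq2 called 3 of the list lower. WRKY33 itself overlapped between conditions in footprints.

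In the hormone pathways that WRKY70, WRKY18 and WRKY40 link, both directions occurred. Of 18 salicylic acid genes 11 were tested, 2 rose and 1 fell, with a median of -0.29. PAD4, a lipase-like regulator, rose by 1.72 ± 0.40 (SE) and ICS1, which makes most pathogen-induced salicylic acid, by 0.63 ± 0.14, while EDS1, the partner of PAD4, fell by 0.50 ± 0.16. PAD4 rested on 4 and 8 footprint counts in the dark, against 29 and 20 in blue light. Its mRNA went the other way, from 17 and 5 counts to 2 and 2, too few to be tested. The mRNA of ICS1 leaned higher (0.34 ± 0.38), not called. Of 22 jasmonate genes 13 were tested, 2 rose and 4 fell, with a median of -0.33. The repressor JAZ9 rose by 1.87 ± 0.17 and the synthesis enzyme AOS by 0.49 ± 0.16, and the repressors JAZ3 and JAZ10 fell by 1.18 ± 0.21 and 1.14 ± 0.38. EDS1 lost the call without the first dark or first blue library, ICS1 without the second dark, AOS without the second dark or first blue, and JAZ10 without either dark or the first blue. The jasmonate genes called lower then numbered 1 to 3, and the salicylic acid genes called higher 1 to 2. DESeq2 called 1 salicylic acid gene higher and 0 lower, and 1 jasmonate gene higher and 1 lower.

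Among senescence genes, with which WRKY53 and WRKY6 are placed, more were called lower than higher. Of 8 genes 6 were tested, 4 fell and 1 rose, with a median of -0.82, and DESeq2 called 3 lower and 0 higher. SEN1, induced by darkness, fell by 3.19 ± 0.08 (SE), SAG20 by 1.74 ± 0.09 and the factor ORE1 by 1.18 ± 0.22, while the chlorophyll-degradation gene SGR1 rose by 0.64 ± 0.18, a call lost without the first blue library.

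Among rapid stress and touch genes, which like WRKY40 and WRKY33 respond within minutes to handling and wounding, more were called higher than lower. Of 23 genes 15 were tested, 8 rose and 2 fell, with a median of 0.53. The zinc finger gene ZAT12 rose by 1.07 ± 0.26 (SE) and MYB44 by 1.04 ± 0.11, while the ethylene response factor ERF1A fell by 1.70 ± 0.19 and the calmodulin-like TCH3 by 1.31 ± 0.10. Without the first blue library 5 genes were called higher, and DESeq2 called 4. The footprint difference of WRKY40, known when it was chosen, was below 0, as for the 2 genes called lower and unlike the 8 called higher.

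**Figure D5:**
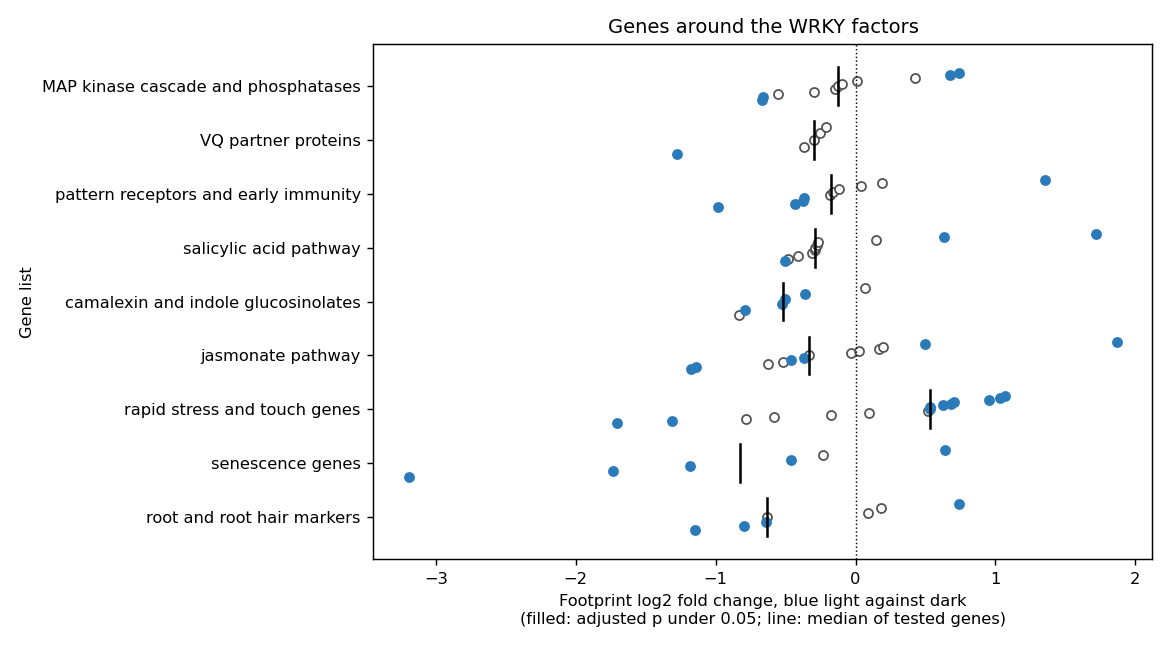
Footprint log2 differences between blue light and dark for the tested genes of 9 lists (filled, adjusted p under 0.05 by edgeR; line, median of the list). The senescence list has a median of -0.82 and the rapid stress and touch list a median of 0.53, with genes on both sides of 0 in each.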

How the data were processed

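Ribosome footprints and mRNA were measured in 8 libraries, 2 per group. Per the labels' protocols, footprints came from RNase I digestion and pelleted ribosomes, and mRNA libraries from a TruSeq kit. The files the authors deposited hold raw whole-number counts per transcript model, with no normalization. Per the submitters' processing notes, TopHat2 2.0.9, Bowtie2 2.1.0 and CASAVA 1.8 were used on TAIR10, with no role stated, and the counting tool is not given in the sources used here. For each locus the model with the longest coding sequence was used, with codons taken from the deposited second column. WRKY11, WRKY15 and WRKY18 have 2 models, which share reads. Whether counting used strand is not given, so reads of an overlapping antisense gene cannot be told apart.

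Blue light was compared with dark in each assay with edgeR 4.0.16 in R 4.3.3 (quasi-likelihood test, 2-sided, TMM scaling, filterByExpr with a minimum count of 10, Benjamini-Hochberg adjustment over all loci tested, 0.05). The SE is the log2 difference divided by the square root of F. Translational efficiency and footprints against mRNA came from 1 fit of all 8 libraries, over loci passing in both assays, and footprint to mRNA ratios use the scaling of that fit. Footprints against mRNA are relative to the scaling of each assay. CPM use TMM library sizes, and intervals are exact at 95%. DESeq2 1.42.0 was an alternative. Scripts were tested on simulated data. There the test recovered 6.59% of log2 changes of 1 in mRNA and 90.6% in footprints, and 66.7% and 99.0% of log2 changes of 2. An absent call in mRNA is therefore not a sign of unchanged mRNA.

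The members and lists were chosen with earlier results of these data known, and subgroups after the data were seen. Named were all 10 members, up to 4 other WRKY loci called in each direction with separate libraries, up to 4 called loci per list in footprints and 2 in mRNA, by size of change, and the nearest gene per member.

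Same-numbered libraries did not deviate together (correlations of 0.0127 to 0.0715), so replicate numbers were not used as pairs.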

Additional observations from a re-analysis of the deposited data

Results flagged for a closer look

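WRKY21 drew a closer look because its 2 assays moved in opposite ways in blue light. Its footprints were higher in both blue libraries than in both dark ones, by 0.64 on the log2 scale, while its mRNA had 3 and 6 counts in the dark and 0 and 0 in blue light. WRKY21 had too few mRNA counts for the fit of translational efficiency. Without the filter on low counts the difference between the assays was called (adjusted p = 0.0452, edgeR's quasi-likelihood test), but it is fitted against mRNA at 0 in blue light, so its size depends on the prior count, and both contrasts were known when the gene was chosen.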

How the results depend on the processing

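Of the 10 genes, 4 were called in footprints. DESeq2's Wald test called 1, and leaving out 1 library at a time called 1 to 3. A filter of at least 10 CPM in 2 libraries called 1, WRKY21, but it removed WRKY22, WRKY40 and WRKY70, so their calls were not tested there. In translational efficiency 0 were called, and 1 without a filter on low counts, WRKY21, whose mRNA was at 0 in blue light. For footprints against mRNA in blue light, 1 was called, 2 with the filter of at least 10 CPM (WRKY11 and WRKY6) and 0 to 1 without a library. Without a filter 2 were called there, WRKY21 and WRKY22, and WRKY11 was not (adjusted p = 0.0731, edgeR). In the dark 2 were called, and 0 to 2 without a library. For WRKY33 the log2 difference of footprints from mRNA in blue light was 0.28 without the first blue mRNA library (from -1.001 to 0.28 over all libraries left out). The filter of at least 10 CPM moved all 3 tested genes down. In the dark WRKY6 went from 0.39 to -0.066, WRKY11 from -0.86 to -1.31 and WRKY33 from -1.09 to -1.55. In blue light they went from -0.54 to -1.01, from -0.88 to -1.34 and from -0.48 to -0.94. Where 0 lay in this comparison thus depended on the filter. The cause was not tested.

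Other WRKY loci called lower in footprints numbered 7, but 2 by DESeq2 and 3 to 6 without a library, and those called higher 0, but 0 to 1 without a library. Over all loci, DESeq2 called 3264 in footprints against 5975, and efficiency calls numbered 329 to 643 without a library, against 625. Efficiency calls split 321 higher and 304 lower, but 364 and 218 with nuclear loci only, a setting that moved the median of footprints against mRNA in blue light from -0.02 to 0.0995.

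With the replicate number as a block, 4 of the 10 genes were called in footprints, 0 in mRNA, 0 in efficiency, and 2 (dark) and 1 (blue light) in footprints against mRNA. The other WRKY loci kept their counts within 1.5 times. Same-numbered libraries share only a number. Few mRNA counts limit every mRNA value.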
